A study of Zea mays with 4 samples.

Results

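Transcript levels of 5 genes of monolignol synthesis and of myb31, a repressor of lignin genes, were read on 4 arrays of 2 maize (Zea mays) inbred lines. The genes were PAL1 (LOC542258), 4CL (LOC542166), CCR (LOC542463), ccr2 (LOC542735), bm1 (LOC542663, also named cad) and myb31 (LOC100037768). They were taken as every probe set annotated with 1 of these genes alone, which gave all 6 genes, of 1108 that the annotation names in this way. Each had 1 probe set, the set of short probes by which the array reads a transcript, so no gene had a second reading on these arrays. The names of all 6 genes were found in the reference gene table.

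Of the 4 arrays, 2 carried RNA of F98902, labelled as a line of bad digestibility, and 2 carried RNA of Cm484, labelled as a line of good digestibility. Neither line was treated, and both grew in a greenhouse with 14 h of light at 22 °C and 10 h of night at 20 °C. Sampling took place in the flowering stage, 24 h ahead of ovulation. Whether stem or root was sampled is not settled, since the labels give stem under growth and root under RNA extraction. With a single line of each kind, no difference between them can be told apart from any other difference between the lines.

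Lignin stiffens the walls of vessels and fibres and limits the breakdown of grass forage. Its building blocks, the monolignols, are made from phenylalanine: phenylalanine ammonia-lyase (PAL) removes the amino group, 4-coumarate CoA ligase (4CL) activates the resulting acids, cinnamoyl-CoA reductase (CCR) turns them into aldehydes and cinnamyl alcohol dehydrogenase (CAD) into alcohols, which peroxidases and laccases link in the wall. Maize brown midrib plants of the bm1 type have reduced CAD activity, altered lignin and brown leaf veins. MYB31 is a MYB transcription factor known to lower the expression of lignin genes, also when it is introduced into Arabidopsis.

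The values are log2 values made with GCRMA, a method that corrects the background by probe sequence and normalizes the arrays to each other. They ran from 1.2 to 14.68. A value under 5 was treated as below detection, and between 54.8% and 55.2% of probe sets reached it on each array. Over the 10131 probe sets detected on at least 2 arrays, Pearson's r was 0.979 between the F98902 arrays, 0.982 between the Cm484 arrays and 0.765 to 0.790 across lines, as a description of arrays that share a normalization. F98902 replicate 2 stood apart in 2 respects. Its RNA amount was the lowest, at 120.7 ng against 312.4 to 416.8 ng. The 5 detected control probe sets for the 5′ end of housekeeping transcripts had a median of -0.83 (log2) relative to the average of the remaining arrays, and the 5 for the 3′ end a median of 0.00. On F98902 replicate 1 the 5′ probe sets deviated the other way, by 0.86.

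The 4 detected enzyme genes read slightly higher in Cm484 and myb31 read higher in F98902, but none of the 6 probe sets was called, that is, none reached an adjusted p under 0.05 in the fit over all probe sets (limma with Benjamini-Hochberg adjustment). At an unadjusted p under 0.05 in the same fit, CCR, bm1 and myb31 passed. The share of all probe sets passing that cutoff was not worked out, so this cannot be read against a background. The shares given next are for adjusted calls, which reached an unadjusted p of at most 0.00876. Over the 17621 probe sets tested, 17.6% were called (27.8% of the detected ones), of which 8.81% of all probe sets lay higher in F98902 and 8.75% lay higher in Cm484. With the fit restricted to the 10131 detected probe sets, where 34.9% were called, myb31 was called and the 4 enzymes were not.

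**Figure D1:**
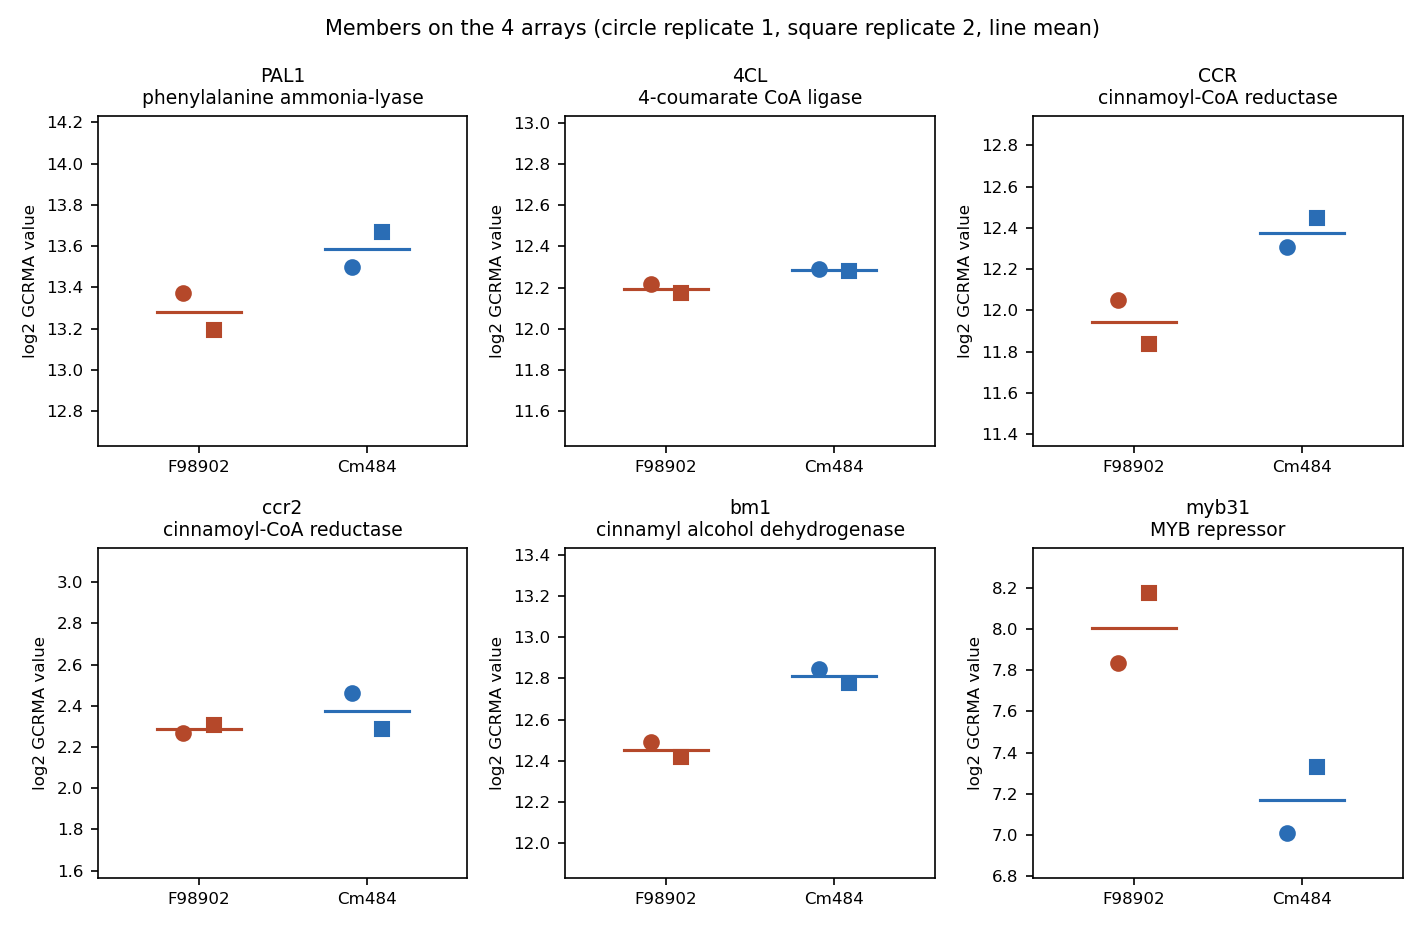
Log2 GCRMA values of the 6 genes on the 2 F98902 and the 2 Cm484 arrays, with circles for replicate 1, squares for replicate 2 and short lines for the mean of each line. Every panel spans the same 1.6 log2 units, so the separations can be compared between panels but the heights cannot; myb31 has the widest separation and ccr2 is below the detection value of 5.

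PAL1, for the entry enzyme of the pathway, read 13.37 and 13.19 on F98902 replicates 1 and 2 and 13.50 and 13.67 on Cm484 replicates 1 and 2. Both Cm484 arrays were higher, but the smallest gap between the lines, 0.13, was narrower than the gap between replicates, 0.18 in F98902 and 0.17 in Cm484. The log2 difference, F98902 minus Cm484, was -0.30 ± 0.11 (SE, n = 2 arrays per line, adjusted p = 0.192 in the limma fit), a level 1.23-fold higher in Cm484 with an unadjusted 95% confidence interval of 0.979 to 1.55. The interval therefore leaves room for equal levels and for a difference of about 1.55-fold.

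4CL, for the ligase that activates the hydroxycinnamic acids, was the most even of the detected members. Its values were 12.22 and 12.17 on the F98902 arrays and 12.29 and 12.28 on the Cm484 arrays. The lines did not overlap, yet the whole set of 4 values lay within 0.12, and the difference was -0.09 ± 0.06 (SE, n = 2 arrays per line, adjusted p = 0.459 in the limma fit). The fold, Cm484 over F98902, was 1.06 with an interval of 0.941 to 1.21.

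The 2 reductase genes differed in whether they were read at all. CCR, the first enzyme committed to the monolignol branch, read 12.05 and 11.84 on the F98902 arrays and 12.30 and 12.45 on the Cm484 arrays. Both Cm484 values were higher, by at least 0.25, while replicates lay 0.21 apart in F98902 and 0.14 apart in Cm484. The difference of -0.43 ± 0.11 (SE, n = 2 arrays per line, adjusted p = 0.101 in the limma fit) was the largest among the enzymes and equals 1.35-fold higher in Cm484, with an interval of 1.07 to 1.71. ccr2, a second reductase gene described in maize mainly from roots, was below detection on every array. It read 2.27 and 2.30 in F98902 and 2.46 and 2.29 in Cm484, so the lines overlapped and no fold is given.

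bm1, for the CAD enzyme of the last step to the alcohols, had the tightest replicates relative to its difference. It read 12.49 and 12.42 on the F98902 arrays and 12.85 and 12.78 on the Cm484 arrays. The lines lay at least 0.29 apart, against 0.07 between replicates of either line. The difference was -0.36 ± 0.07 (SE, n = 2 arrays per line, adjusted p = 0.0543 in the limma fit), or 1.28-fold higher in Cm484 with an interval of 1.11 to 1.48. This adjusted p lay just past the threshold, and it was 0.130 over detected probe sets only and 0.0275 after a further quantile normalization.

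myb31 went the other way. It read 7.83 and 8.17 on F98902 replicates 1 and 2, and 7.01 and 7.33 on Cm484 replicates 1 and 2. Each of the 4 pairings of an F98902 with a Cm484 array had the higher value in F98902, and the smallest gap between the lines, 0.51, was wider than the gaps of 0.34 and 0.32 between replicates. The mean was 8.0 ± 0.24 (SD, n = 2) in F98902 and 7.17 ± 0.22 (SD, n = 2) in Cm484, a 1.78-fold difference with an interval of 1.21 to 2.62. On the log2 scale this was 0.83 ± 0.19 (SE, n = 2 arrays per line, adjusted p = 0.0747 in the limma fit). Over the detected probe sets alone the same difference had an adjusted p of 0.0313, where 17.7% of probe sets were called higher in F98902. That call was lost without F98902 replicate 2, at 0.66 (adjusted p = 0.121), without Cm484 replicate 1, at 0.67 (adjusted p = 0.137), and without Cm484 replicate 2, at 0.99 (adjusted p = 0.0532). It stayed under the threshold without F98902 replicate 1, at 1.0 (adjusted p = 0.0442).

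**Figure D2:**
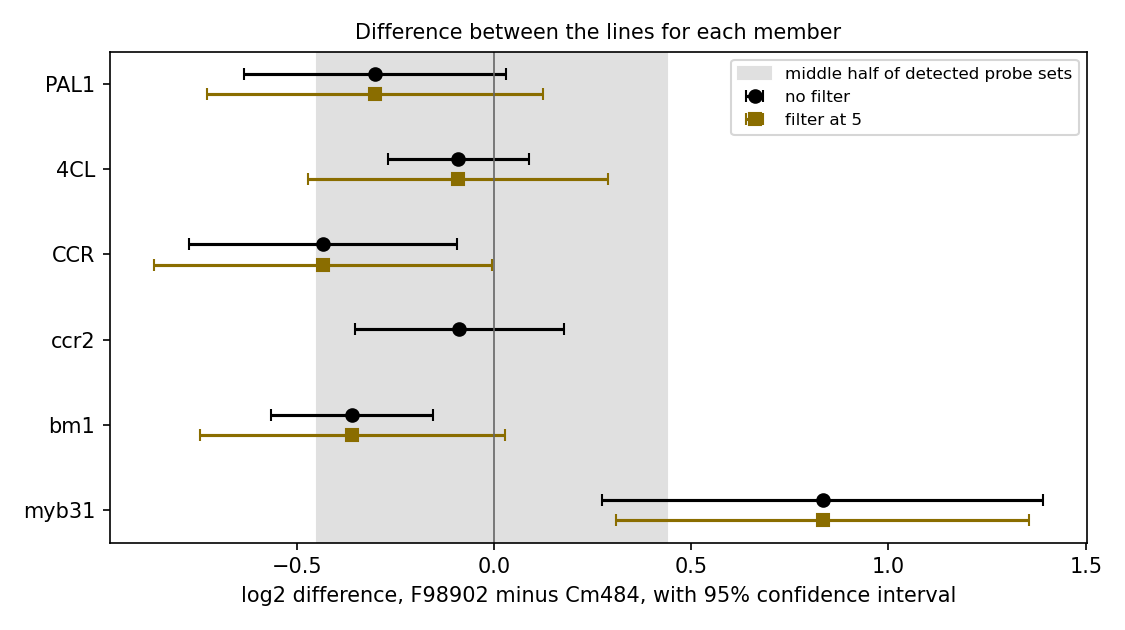
Log2 difference of each gene, F98902 minus Cm484, with its unadjusted 95% confidence interval from the fit over all probe sets (circles) and over detected probe sets (squares; none for ccr2). The grey band runs from the lower quartile, -0.45, to the upper quartile, 0.44, of the differences of detected probe sets: the 5 enzymes lie inside it and myb31 at 0.83 lies outside.

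Set against the array as a whole, the differences of the enzymes were ordinary in size. Among the 10131 detected probe sets, 50.8% had a larger absolute difference than CCR, 56.6% a larger one than bm1, 61.9% a larger one than PAL1 and 86.7% a larger one than 4CL. For myb31 the share was 29.5%. The median log2 difference of the 6 members, with undetected ccr2 among them, was -0.20, against 0.00 over all probe sets tested. For the 4 detected enzymes alone it was -0.33, against -0.02 over detected probe sets, whose lower quartile was -0.45. The lines did not overlap for 5 of the 6 members, but they also did not overlap for 72% of detected probe sets and 49.9% of all probe sets. Both Cm484 values exceeded both F98902 values for 37.1% of detected probe sets, as they did for PAL1, 4CL, CCR and bm1.

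The size a difference would have needed depended on the moderated standard error, which joins each gene's own spread with a prior shared by all probe sets. At that standard error, a call in the fit over all probe sets needed a log2 difference of 0.33 for 4CL, 0.37 for bm1, 0.61 for PAL1, 0.62 for CCR and 1.02 for myb31. The measured differences of all 5 were smaller than this, and that of bm1 came nearest.

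Among the 5 detected members, F98902 replicate 2 held the lowest value of all 4 arrays for each enzyme and the highest for myb31. This is the array with the low 5′ signal and the least RNA, though its cRNA amount was that of the other arrays. F98902 replicate 1 deviated at the 5′ end by a similar amount the other way (0.86 against -0.83). Without F98902 replicate 2 the log2 differences were -0.21 for PAL1, -0.07 for 4CL, -0.33 for CCR, -0.32 for bm1 and 0.66 for myb31. Each was smaller, as must follow from the extreme values of that array. The part of RNA quality in these values was not tested.

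**Figure D3:**
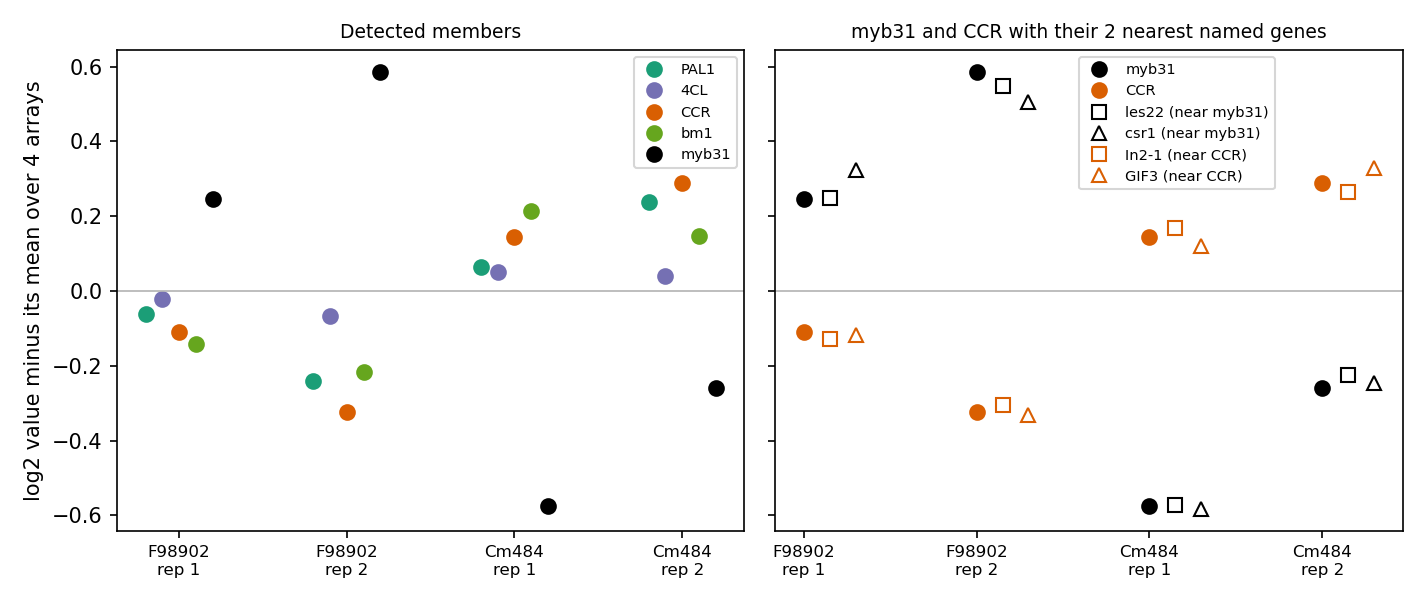
Log2 values minus each gene's mean over the 4 arrays, for the 5 detected members (left) and for myb31 and CCR with the 2 named genes nearest to each (right, open symbols). myb31 is above its mean on both F98902 arrays and the 4 enzymes are below theirs; the points of les22 and In2-1 lie close to those of myb31 and CCR.

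The values of each gene were then centred on their own mean and compared across the 4 arrays by Euclidean distance, a description over few arrays that share a normalization. PAL1 and CCR were the most alike of the members, at a distance of 0.14, and both bm1 to CCR and bm1 to PAL1 lay at 0.19. myb31 lay between 0.99 (from 4CL) and 1.33 (from CCR) from the enzymes. Each detected member was also compared with 889 detected probe sets of other named genes. Nearest to myb31 were les22 (LOC542606), for an enzyme of porphyrin synthesis, at 0.05, and csr1 (LOC542753), at 0.11. Nearest to CCR were In2-1 (LOC542388), a gene known for induction by herbicide safeners and under the detection value on both F98902 arrays, and GIF3 (LOC100101546), named as a growth-regulating factor partner, at 0.04 and 0.05. gsh1 (LOC542026) and the sucrose synthase gene sh1 (LOC542365) were nearest to bm1, at 0.05 and 0.09. PCNA (LOC542425), for the sliding clamp of DNA replication, and GB1 (LOC542310) were nearest to 4CL, at 0.04 and 0.05. The ferredoxin gene fdx3 (LOC542276) and meg6 were nearest to PAL1, at 0.09 and 0.11.

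Beyond the members, the annotation named no further gene of monolignol synthesis, so the pathway between PAL and CAD is seen here through these 5 probe sets alone. Downstream of the alcohols, 1 of 7 laccase and peroxidase probe sets was called, against 17.6% of all probe sets. This was the peroxidase PER42, which read 10.53 and 10.64 on the F98902 arrays and 9.68 and 9.58 on the Cm484 arrays. The difference of 0.96 ± 0.08 (SE, adjusted p = 0.0125 in the limma fit) equals 1.94-fold more signal in F98902. The list median of -0.01 is that of an undetected probe set, since 5 of the 7 were below detection on every array. The median of the 2 detected ones, 0.41, lies midway between PER42 and the laccase LAC1 (LOC606456), which went opposite ways. LAC1 overlapped between the lines (-0.14 ± 0.27 SE, adjusted p = 0.999 in the limma fit).

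The MYB and NAC list had 14 probe sets beside myb31, of which 2 were detected on at least 2 arrays. The median was 0.00 over the 14 and -0.17 over the 2. Of the 14, 1 was called, against 17.6% of all probe sets, and 0 in the fit over detected probe sets, which leaves that probe set out. The called one is amyb5 (LOC542472), a beta-amylase gene caught by the letters of its name. It was below detection in F98902 and read 4.87 and 5.78 on Cm484 replicates 1 and 2, so only the latter array reached 5. By the Cm484 mean of 5.33, amyb5 was at least 1.26-fold higher in Cm484 (adjusted p = 0.0228 in the limma fit). myb42 (LOC100101513), a relative of myb31 also known to lower lignin gene expression, was picked out after its values were seen. Its detected probe set read 6.36 and 6.39 in F98902 and 6.37 and 6.84 in Cm484. The lines overlapped, with a difference of -0.23 ± 0.19 (SE, adjusted p = 0.589). Leaving out Cm484 replicate 1 gave -0.46 and leaving out Cm484 replicate 2 gave 0.01, so its direction rests on the latter array. The other myb42 probe set was below detection throughout.

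In the flavonoid branch, which shares the product of 4CL with the monolignols, 1 of 4 probe sets was called. Over all probe sets 17.6% were called, and 27.8% of the detected ones, so this count is near the background. The chalcone synthase gene chs1 (LOC541645), for the first enzyme of that branch, read 9.18 and 9.15 in F98902 and 7.31 and 7.51 in Cm484 (1.75 ± 0.10 SE, adjusted p = 0.00618). The 4 probe sets of secondary wall cellulose, which is laid down together with lignin, were all detected. They had a median of -0.36 and no call in this fit, against 27.8% of detected probe sets called. The clearest of them, cesa11 (LOC542139), read 11.11 and 10.65 in F98902 and 11.90 and 11.45 in Cm484 (-0.79 ± 0.25 SE, adjusted p = 0.148). Among the alternatives without a replicate block, it was under the threshold with an intensity trend in the variance (adjusted p = 0.0419) and without F98902 replicate 1 (-1.02, adjusted p = 0.0333).

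The list named for the supply of phenylalanine and methyl groups had 7 probe sets. They were of glutamine synthetase genes (gln2, gln3, Gln1-4 and GLN6), mas1, MMT1 and sam2. No gene of phenylalanine synthesis was among them, so the list does not measure that supply. Of the 7, 5 were called higher in Cm484 and 0 in F98902, with a median of -0.96. The background of calls in that direction was 8.75% of all probe sets, detected or not. All 7 of the list were detected, and 27.8% of detected probe sets were called in either direction. Of these 5, gln2 (LOC542400) and gln3 (LOC542215) encode glutamine synthetase, which recaptures ammonium, including that set free by PAL. mas1 (LOC542252) encodes malate synthase and matched only through the symbol MS. gln3 was below detection on both F98902 arrays and at least 9.47-fold higher in Cm484 (adjusted p = 0.00151). gln2 was 3.97-fold higher (-1.99 ± 0.10 SE, adjusted p = 0.00578), and mas1 differed by -0.84 ± 0.14 (SE, adjusted p = 0.0395). MMT1, for a methyltransferase that acts on methionine, was 2.41-fold higher in Cm484 (-1.27 ± 0.15 SE, adjusted p = 0.0235). The fifth call was sam2 (LOC542733), a name from S-adenosylmethionine metabolism, at -0.96 ± 0.17 (SE, adjusted p = 0.0492), named here because it completes the count. The calls of mas1 and sam2 were lost without Cm484 replicate 1 (adjusted p = 0.0685 and 0.0621), and those of MMT1, mas1 and sam2 with a further quantile normalization (adjusted p = 0.0611, 0.101 and 0.110). In the fit over detected probe sets, mas1 and sam2 were also not called without F98902 replicate 1 (adjusted p = 0.0509 and 0.0739), without F98902 replicate 2 (adjusted p = 0.0844 and 0.0543) or without Cm484 replicate 1 (adjusted p = 0.0928 and 0.0792).

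**Figure D4:**
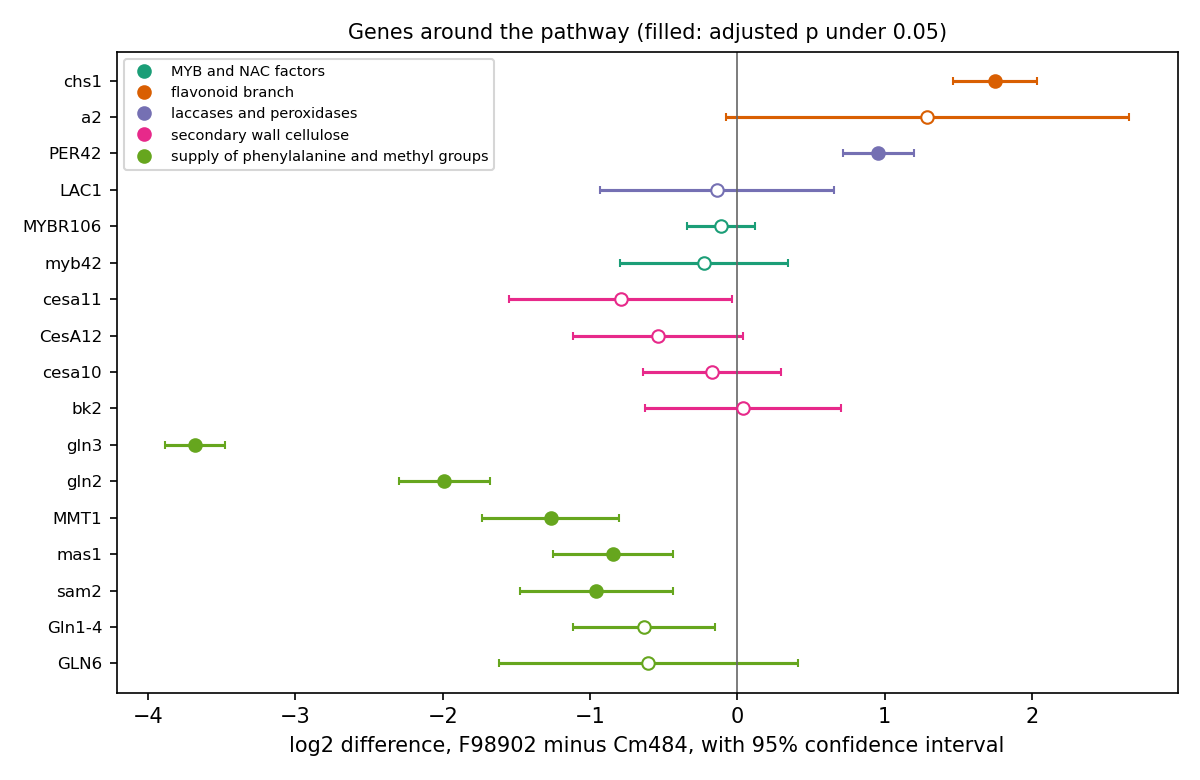
Log2 differences, F98902 minus Cm484, with unadjusted 95% confidence intervals, for the listed genes around the pathway that were detected on at least 2 arrays; filled points had an adjusted p under 0.05 in the fit over all probe sets. chs1 and PER42 lie to the right (higher in F98902), and the called genes of the supply list lie to the left; the value of gln3 in F98902 is below detection, so its distance from 0 is only indicative.

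Marker genes of several tissues were used to describe the samples, and those named were picked out after their values were seen. All 6 probe sets for vascular and lignified tissue were detected on all 4 arrays. Their summed log2 levels were 63.9 to 64 on the F98902 arrays and 64.2 to 65.5 on the Cm484 arrays. Of these 6, 1 was called, the potassium channel gene ZMK2 (LOC542002), higher in F98902, against 27.8% of detected probe sets called in either direction. Of 14 probe sets for green tissue, 11 were detected on all arrays. The 14 summed to 126.8 to 128.3 in F98902 and 105.5 to 107.9 in Cm484. Of them, 9 were called higher in F98902 and 1 in Cm484. The shares of all probe sets were 8.81% and 8.75%, which are low for a list of mostly detected probe sets, since 27.8% of detected ones were called in either direction. These are not 14 separate genes, since PPDK and CP24 were each read by several probe sets. The sums and calls count such genes repeatedly. The calls higher in F98902 were of PPDK, CP24, psad1, Lhcb5-2 and pep1. Not every probe set of PPDK and CP24 was called, and a PPDK one detected on all 4 arrays had a mean of 8.36 in each line. pep1 read 5.50 and 4.35 on F98902 replicates 1 and 2 and was below detection in Cm484, so only F98902 replicate 1 reached 5. The call higher in Cm484 was of lhcb5, and rbcS was not called. The single root marker matched, zrp4 (LOC542706), was below detection in F98902 and read 8.83 and 8.59 in Cm484. Of 14 seed and pollen probe sets, 13 were below detection throughout, and the other is GLB1 (LOC541815), a haemoglobin name. The part of tissue make-up in the differences above was not tested, and in these bulk samples fewer cells of a type cannot be told apart from less RNA per cell.

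**Figure D5:**
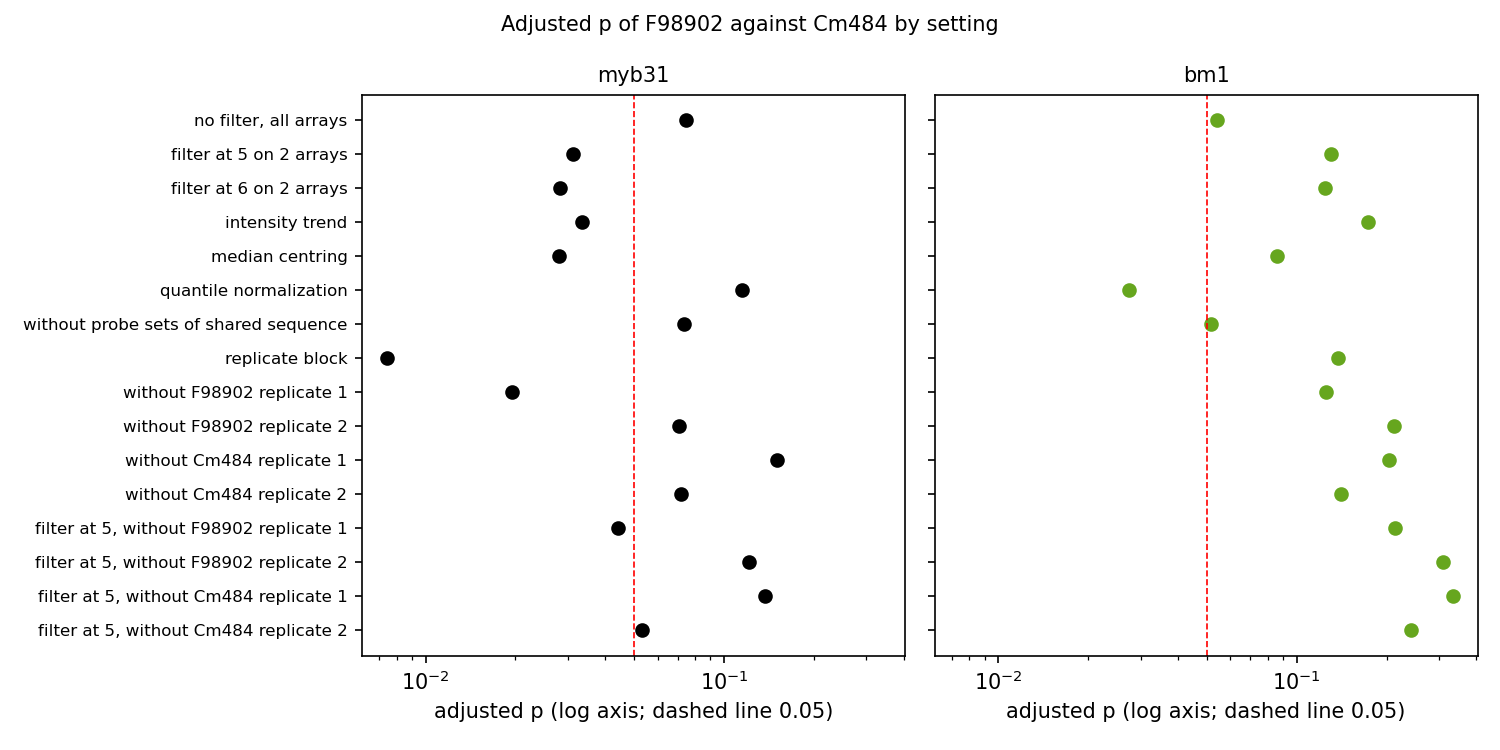
Adjusted p of the difference between the lines for myb31 (left) and bm1 (right) under each processing setting, on a log axis with the threshold of 0.05 dashed. myb31 crosses the threshold in 7 of 15 alternatives, between 0.00741 and 0.151, and bm1 in 1 of 15, between 0.0275 and 0.334.

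The calls on both sides of the threshold depended on the processing for 2 of the members, myb31 and bm1. Over the 15 alternatives, myb31 ranged from 0.66 to 1.0 and was called in 7, and bm1 ranged from -0.41 to -0.32 and was called in 1. PAL1 (-0.39 to -0.21), 4CL (-0.15 to -0.07) and CCR (-0.54 to -0.33) were called in none of the 15.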

How the data were processed

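cRNA made from the RNA of 4 samples was hybridised to the Affymetrix maize array. Per the submitters' processing notes, the authors made the values with GCRMA in R 2.6.2, and they deposited 1 table of log2 values, used here as they stand. Any further step of theirs is not given in the sources used. The number of arrays limits the precision.

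Names came from the platform's annotation, updated by gene identifier to RefSeq's gene table for the assembly Zm-B73-REFERENCE-NAM-5.0. The table holds 17734 probe sets, and the annotation gives a single gene for 1452, several for 1 and none for 16281. Those 1452 stood for 1108 genes, of which 1060 were in the RefSeq table. After 113 controls were left out, the lines were compared over 17621 probe sets with limma 3.58.1 under R 4.3.3 (linear model with eBayes moderation, no covariates, no filter, 2 residual and 1.39 prior degrees of freedom). P-values are two-sided and Benjamini-Hochberg adjusted over all probe sets tested. An alternative fit kept the 10131 probe sets at 5 (log2) or more on at least 2 arrays. Other alternatives changed the filter, variance prior, scaling, shared-sequence probe sets, replicate block and arrays. Figures were drawn with matplotlib 3.10.9.

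The labels number the arrays of each line 1 and 2 and give no separate plants, so p-values reflect only how these samples spread, which may be technical. Deviations from the line means of same-numbered arrays correlated at -0.03 across the probe sets, so the numbers were not treated as pairs.

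The members and the 6 lists of related genes were chosen with earlier results of these data known. Named genes were all members, up to 4 called probe sets per list in order of p (or the detected one with the lowest p where none was called), and the 2 detected named genes nearest to each detected member. The tissue markers, sam2, myb42 and LAC1 are named outside this rule, after their values were seen. Promoter motifs were not analysed here.

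The fit was tested on simulated data for this comparison over 17621 probe sets, with 200 of them changed. Changes of 1.5-fold were recovered with the right sign in 0 of 50 cases, changes of 2-fold in 14, changes of 4-fold in 43 and changes of 8-fold in 44. Among 17421 unchanged probe sets 7 were called. The real data held far more calls, so these rates do not carry over.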

Additional observations from a re-analysis of the deposited data

How the results depend on the processing

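In the fit over all probe sets 0 members and 3093 probe sets were called. For myb31 the log2 difference of 0.83 was called with a filter at 5 (adjusted p = 0.0313), a filter at 6 (adjusted p = 0.0281) and an intensity trend (adjusted p = 0.0335), and 0.78 was called after median centring (adjusted p = 0.0280). In each of these 1 member was called, as also after quantile normalization, where that member was bm1 (-0.41, adjusted p = 0.0275). With 1 array left out, myb31 ranged from 0.66 to 1.0 and the members called from 0 to 1, with 2431 to 4268 probe sets called; with the filter at 5 as well, a choice made after seeing the data, 2205 to 2706 were called. With the replicate number as a block, 4736 probe sets were called, and myb31 (0.83, adjusted p = 0.00741) was the 1 member called; the numbers are shared names only. Quantile normalization left 1974 probe sets called. ccr2 could not be given a value under filters. With 1 array left out, the lone array is assumed to vary like the others. cesa11 was also called with the block (-0.79, adjusted p = 0.00905). Of 20 named genes that are no members, 8 were called in the fit over all probe sets. Over the alternatives these gave 101 results that kept the call and 11 that lost it, and the other 12 genes gave 17 that gained one and 161 that stayed uncalled, 2 of these with the sign turned.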
